A study of Komagataella phaffii with 15 samples.

Results

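Slow growth of the wild-type yeast *Komagataella phaffii* CBS7435 (syn. *Pichia pastoris*) was set against fast growth of the same strain in glucose-limited chemostats. The compared groups were S3, taken at a specific growth rate of 0.05 per h, and S1, taken at 0.1 per h, with 3 biological replicates each. These are 6 of the 15 libraries of the series. The strain carried no deletion or reporter in either group. A chemostat was run first at the fast rate and sampled at S1, and was then switched to the slow rate and sampled at S3, so growth rate and time in culture cannot be told apart. Of 5341 annotated transcripts, 5310 had at least 10 normalized counts in at least 3 of the 6 libraries and were tested. The other 31 were not tested, and 2 of them had no read at all. At the edge of this filter, the 1 transcript with 10 counts in exactly 3 libraries averaged 9.37 normalized counts, and the 3 transcripts with exactly 2 such libraries had a median of 9.01. Normalized counts are the deposited values per gene, which are reads scaled for depth and effective transcript length within these 6 libraries.

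In a chemostat, fresh medium enters and culture leaves at a set dilution rate, and at steady state the cells divide as fast as they are washed out. *FLO* genes encode flocculins, cell wall proteins through which yeast cells adhere to each other and to surfaces. In *Saccharomyces cerevisiae*, Flo11 is needed for pseudohyphal growth, in which elongated cells stay attached after division, and Flo8 is a transcription factor that activates *FLO* genes. In these chemostats some cells of the slow culture grew as pseudohyphae and the rest did not. Since RNA came from the whole culture, a change in the number of cells that express a gene and a change in RNA per cell cannot be told apart.

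The S3 libraries held 8975668 to 9364015 reads and the S1 libraries 4632193 to 10843287, with S1 replicate 3 the lowest. This library also stood apart in its values. The first principal component, with 72.9% of the variance, placed the S3 libraries between -13.4 and -12.4, S1 replicates 1 and 2 at 9.98 and 5.28, and S1 replicate 3 at 23.3. The median SD of a gene on the log2 scale was 0.0699 among the S3 libraries and 0.117 among the S1 libraries, and 0.0746 among the S1 libraries without replicate 3. The last of these SDs is over 2 libraries and the others over 3, so it is not on a like footing with them. Because S1 replicate 3 stood apart on the first component, the results are also given without it. *ACT1*, encoding actin, averaged 1601 ± 41.4 TPM at S3 and 1727 ± 74.6 TPM at S1 (SD, n = 3 each). Every S3 library was below every S1 library in TPM, though not in normalized counts, and its log2 fold change was -0.08 (adjusted p = 0.51 from limma). TPM express reads relative to transcript length and to the total of a library.

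The growth rates differed in many genes by small amounts. An adjusted p under 0.05 from limma was reached by 1744 of 5310 genes (32.8%), of which 856 (16.1%) were higher and 888 (16.7%) lower at S3. Of these, 1338 (76.7%) differed by less than a factor of 1.5, and their median absolute log2 fold change was 0.41. The log2 fold changes are those of the normalized count plus 1, S3 over S1, and their median over all tested genes was 0.01. Genes were called when the log2 fold change also passed 1 in either direction. At S3, 59 genes (1.11%) were called higher and 17 (0.32%) lower. The smallest called rise was 1.01, and the nearest change under the threshold was 0.995. Between the groups, the libraries did not overlap for 2668 of the 5310 genes (50.2%), and this held for all 76 called genes.

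**Figure D1:**
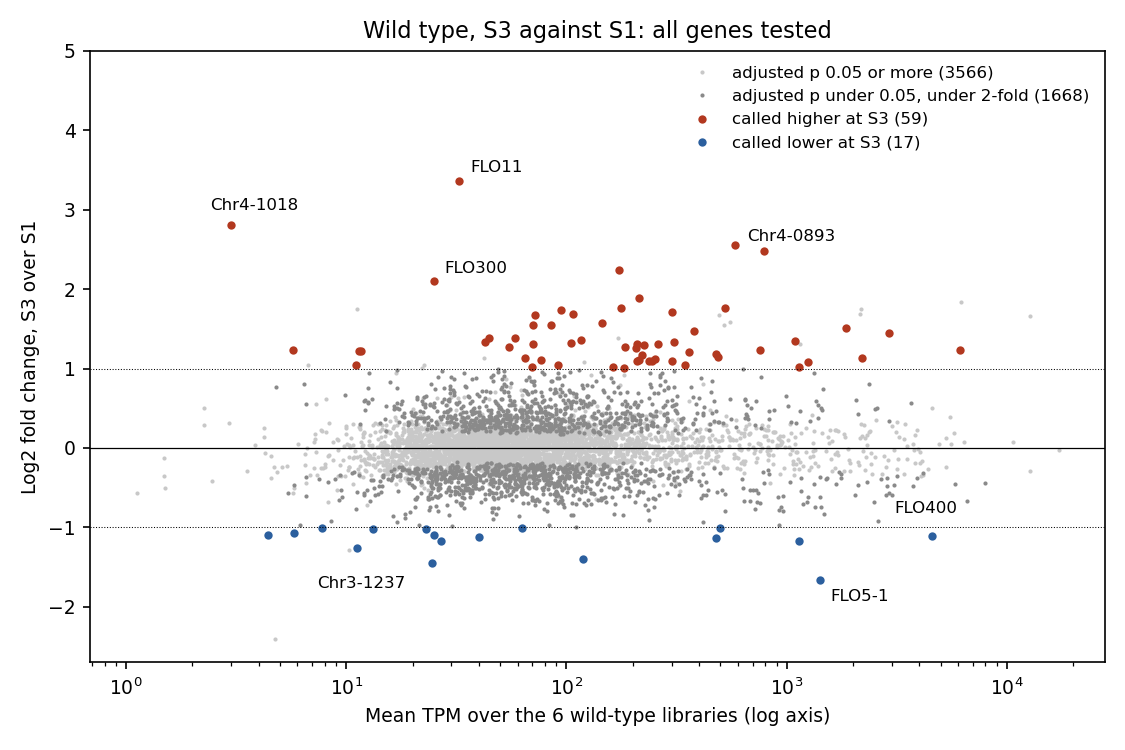
Each point is 1 of the 5310 tested genes of the wild type, with the mean TPM over the 6 libraries on a log axis against the log2 fold change of S3 over S1; the dotted lines mark a factor of 2. The 59 genes called higher reach 3.36 at *FLO11*, while the 17 called lower end at -1.66 at *FLO5-1*.

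The family of *FLO* genes changed in both directions. It has 13 members in the study, 12 of which passed the filter. Of these 12, 2 were called higher at S3 (*FLO11* and *FLO300*) and 2 lower (*FLO5-1* and PP7435_Chr3-1237), beside 1.11% and 0.32% of all tested genes. A further 3 (*FLO400*, *FLO200* and *FLO5-2*) passed the adjusted p on the lower side within the factor of 2, where 16.7% of all tested genes had an adjusted p under 0.05 on that side. The other 5 passed neither. The median log2 fold change of the 12 was -0.28, beside 0.01 over all genes.

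*FLO11* (PP7435_Chr2-0267), the putative homolog of the *S. cerevisiae* gene for filamentous growth, had the largest rise of all 5310 genes. It had 965, 1474 and 1938 normalized counts in the S3 libraries, against 214, 224 and 51.4 in the S1 libraries. All S3 libraries were above all S1 libraries, and the lowest S1 value was that of replicate 3. The log2 fold change was 3.36 (standard error 0.53, adjusted p = 0.0032 by limma), a 10.3-fold rise, and 2.67 (adjusted p = 2.6e-05 from limma) without S1 replicate 3. The call was lost with fold changes shrunken by DESeq2 (0.61) and in edgeR on the kallisto estimated counts, a separate deposited set that came to 0% to 4.15% of its reads (1.245, adjusted p = 0.15 by edgeR). Even at S3 it was not an abundant transcript. *FLO11* averaged 58.8 ± 20.5 TPM at S3 and 6.54 ± 3.73 TPM at S1 (SD, n = 3 each), while the median of all tested genes was 58.7 TPM at S3 and 59.0 TPM at S1.

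*FLO300* (PP7435_Chr4-1020), a predicted flocculin with a carbohydrate-binding PA14/GLEYA domain, also rose. It had 254, 903 and 1503 normalized counts at S3, against 203, 137 and 156 at S1. The groups did not overlap, but S3 replicate 1 lay close to the S1 libraries. The log2 fold change was 2.10 (standard error 0.55, limma's adjusted p = 0.022). It ranged from 1.55 to 2.83 with 1 library left out. The call was lost without S3 replicate 2 (1.92, adjusted p = 0.076 by limma), without S3 replicate 3 (1.55, 0.060) and without S1 replicate 1 (2.26, 0.055). With the fold change shrunken by DESeq2 it was 0.45, and on the estimated counts it turned to -0.54.

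*FLO100* (PP7435_Chr1-1587), another member with a PA14/GLEYA domain, failed the filter and was not tested. It had 1, 110 and 168 reads in the S3 libraries, against 3, 10 and 2 reads in the S1 libraries. Replicates 2 and 3 of S3 were above every S1 library, while replicate 1 of S3 was below them all, so the groups overlapped.

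*FLO5-1* (PP7435_Chr1-1389) had the largest called fall. This member, whose product carries a PA14/GLEYA domain, had 9301, 9522 and 10203 normalized counts at S3, against 26785, 32998 and 32311 at S1. The groups lay far apart, with little spread within S3. The log2 fold change was -1.66 (standard error 0.11, adjusted p = 0.00034 by limma), and -1.62 without S1 replicate 3. On the estimated counts, which came to 1.05% to 3.23% of its reads, the call was lost (-0.42, adjusted p = 0.062 by edgeR). PP7435_Chr3-1237 is a much weaker transcript that fell with it. It had 82.3, 146 and 144 normalized counts at S3, against 259, 341 and 404 at S1. Its log2 fold change was -1.45 (standard error 0.24, limma's adjusted p = 0.0040).

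*FLO400* (PP7435_Chr4-0865) was the most abundant family member at S1. It had 16900, 22261 and 26212 normalized counts at S3, against 39658, 34410 and 48953 at S1, with no overlap. At -0.92 on the log2 scale (standard error 0.19, adjusted p = 0.0097 by limma), it lay just inside the factor of 2. It passed that factor without S3 replicate 3 (-1.06, adjusted p = 0.015 from limma) and without S1 replicate 2 (-1.04, 0.0050). Of 17 alternatives, 3 gave it a call, these among them, and the largest fall was -1.23. In TPM, *FLO400* averaged 1776 ± 410 at S3 and 3431 ± 828 at S1 (SD, n = 3 each), and *FLO5-1* averaged 666 ± 43.3 at S3 and 2156 ± 258 at S1. At S3 *FLO5-1* was below *ACT1* in every library and *FLO400* above it in replicates 2 and 3, whereas at S1 both were above *ACT1* in every library.

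*FLO200* (PP7435_Chr3-1226) and *FLO5-2* (PP7435_Chr3-1228), also predicted flocculins, were lower at S3 by less than a factor of 2. *FLO200* had 69.4, 74.7 and 78.5 normalized counts at S3, against 107, 98.0 and 140 at S1. *FLO5-2* had 299, 309 and 381 at S3, against 446, 389 and 480 at S1. The groups did not overlap in either gene, and the log2 fold changes were -0.61 and -0.41 (adjusted p = 0.022 and 0.030 from limma). With 1 library left out the adjusted p from limma reached 0.075 for *FLO200* and 0.11 for *FLO5-2*. Most of the reads of both genes, 68.1% for *FLO200* and 87.1% for *FLO5-2*, were matched in number by the separate kallisto estimated counts deposited for each library. The matched share of *FLO200* was 75.3% to 84.0% at S3 and 53.9% to 65.9% at S1. For *FLO5-2* it was 92.7% to 94.6% at S3 and 80.3% to 85.4% at S1. On the reads less these counts, the log2 fold changes were -1.42 for *FLO200* (adjusted p = 0.010 from edgeR) and -1.93 for *FLO5-2* (adjusted p = 0.00098 from edgeR), so both then passed the factor of 2. These values rest on the smaller part of the reads. The smallest falls under the alternatives were -0.26 for *FLO200* and -0.28 for *FLO5-2*.

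The other members did not pass the test. PP7435_Chr1-2104 was the most abundant of these, with 3309 ± 404 TPM at S3 and 2942 ± 373 TPM at S1 (SD, n = 3 each), and its groups overlapped. *BSC1* (PP7435_Chr1-1549), whose product has a Flo11 domain, had a log2 fold change of -0.11, PP7435_Chr2-0004 of -0.36, PP7435_Chr4-0629 of 0.01 and PP7435_Chr4-1013 of -0.21. Of PP7435_Chr4-1013, 95.8% of the reads were matched by the estimated counts, and the value on the remaining reads turned to 0.82 (adjusted p = 0.11 from edgeR). *FLO8* (PP7435_Chr4-0252), the putative regulator, averaged 33.7 ± 0.621 TPM at S3 and 36.2 ± 3.20 TPM at S1 (SD, n = 3 each). Its log2 fold change was -0.07 (standard error 0.06, limma's adjusted p = 0.37).

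**Figure D2:**
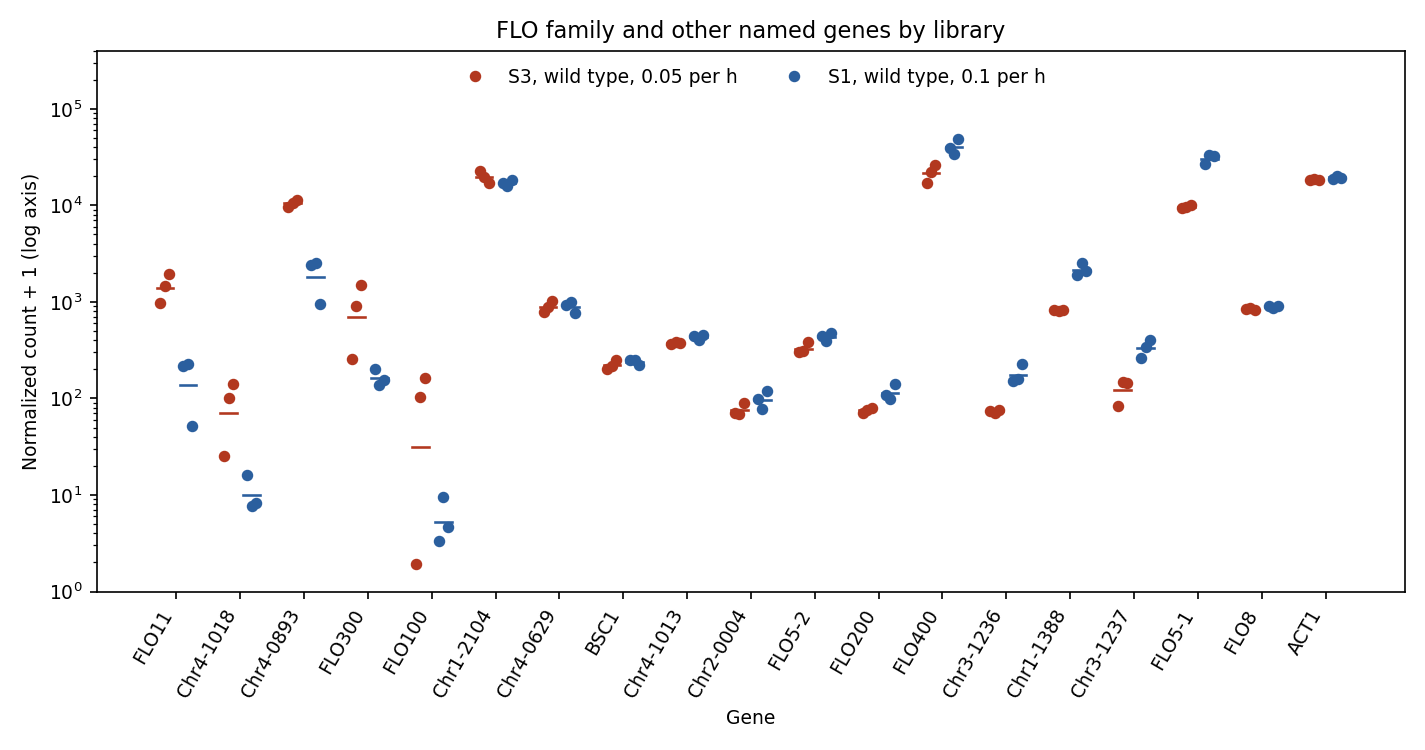
Normalized counts plus 1 on a log axis for the named genes of the wild type, with 1 point per library and a line at the mean on the log2 scale; for each gene S3 is on the left and S1 on the right. *FLO11* and *FLO300* are higher and *FLO5-1* and Chr3-1237 lower in every S3 library, and S3 replicate 1 is the lowest S3 library for *FLO11*, *FLO300*, *FLO100* and Chr4-1018.

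The S3 libraries agreed closely over most genes but not over the members that rose. Only 15 of the 5310 tested genes had a range of more than 2-fold among the S3 libraries. Of these 15, 3 were called between the growth rates: *FLO11*, *FLO300* and PP7435_Chr4-1018. S3 replicate 1 was the lowest S3 library in 11 of the 15, and in 11 of the 13 *FLO* family members, beside 40.6% of all tested genes. The share of pseudohyphal cells in each culture was not used here, and its part in these differences was not tested.

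Beyond the *FLO* family, the largest rises were those of PP7435_Chr4-1018 and PP7435_Chr4-0893. No gene name was available for either identifier. PP7435_Chr4-1018 was a rare transcript, with 24.1, 99.6 and 141 normalized counts at S3, against 15, 6.76 and 7.35 at S1. Its log2 fold change was 2.81 (standard error 0.63, adjusted p = 0.012 by limma). Without S3 replicate 2 the call was lost (2.56, adjusted p = 0.056 by limma), and with shrunken fold changes from DESeq2 it was 0.43. PP7435_Chr4-0893 was abundant, with 9610, 10637 and 11415 normalized counts at S3, against 2384, 2560 and 946 at S1. Here the S3 libraries agreed within narrow limits and S1 replicate 3 was the lowest. Its log2 fold change was 2.55 (standard error 0.33, limma's adjusted p = 0.0017), and 2.09 without S1 replicate 3. Shrinkage by DESeq2 took it to 0.93, inside the factor of 2.

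As a group, the 59 genes that rose were more strongly expressed than most genes. Their median was 279 TPM at S3 and 124 TPM at S1, and they ranged from 5.39 to 8533 TPM at S3 and from 0.603 to 3757 TPM at S1. Together they held 35028 to 41473 TPM in the S3 libraries, against 12102 to 19061 TPM in the S1 libraries. When the tested genes were split into 4 classes of equal size by mean TPM, 36 of the 59 fell in the highest class, which begins at 118 TPM. Of the 59, 24 (40.7%) had transcripts shorter than 600 bases, a length that 17.7% of all tested genes fell under. The increases were moderate in most cases, with a median log2 fold change of 1.30, 42 genes at 1.5 or less and 6 genes above 2.

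The size of these rises depended in part on S1 replicate 3. This library was the lowest S1 library in 51 of the 59 genes, beside 2253 of all 5310 tested genes. In these 51 it was also the lowest of all 6, since the groups did not overlap in any called gene. The S1 libraries ranged over more than 2-fold in 34 of the 59 genes, the S3 libraries in 3. Without S1 replicate 3, 34 genes were called higher, 32 of them among the 59. All 59 kept their direction then and 58 an adjusted p under 0.05, but their median log2 fold change was 1.02, beside 1.30. Without S1 replicate 2, 116 genes were called higher, including all 59. For 6 of the 59 (10.2%, beside 7.19% of all tested genes) the estimated counts came to more than 50% of the reads.

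**Figure D3:**
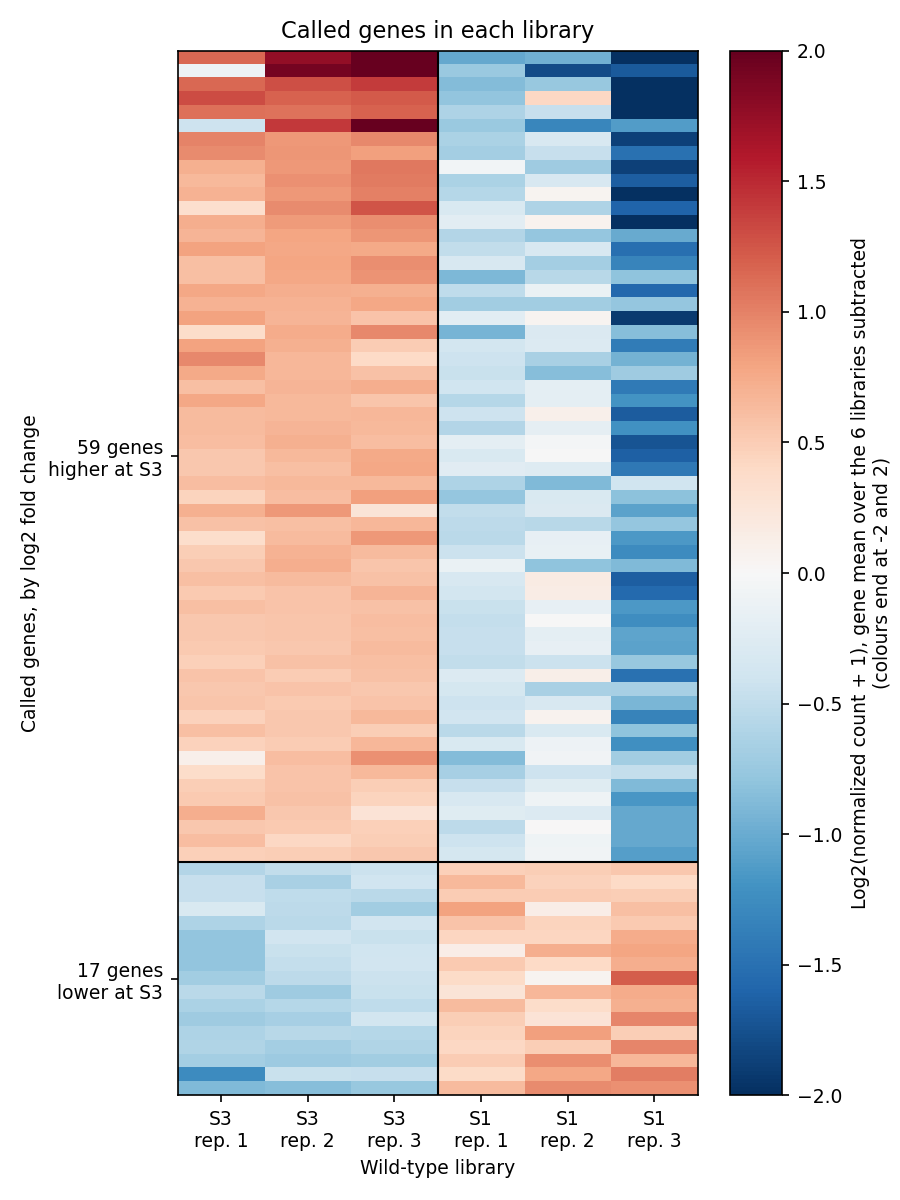
The 76 called genes of the wild type in rows, ordered by log2 fold change, and the 6 libraries in columns, S3 on the left and S1 on the right; the colour is log2 of the normalized count plus 1 after subtraction of the gene's mean, and the colours end at -2 and 2. S1 replicate 3 is the lowest library in 51 of the 59 genes higher at S3.

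The 17 genes that fell were mostly weak transcripts. Their median was 16.1 TPM at S3 and 37.9 TPM at S1, and 9 of them lay in the lowest of the 4 classes. They spanned 2.70 to 2713 TPM at S3 and 6.14 to 6391 TPM at S1. The falls were small, with a median log2 fold change of -1.10 and 16 of the 17 within -1.5. S1 replicate 3 was the highest S1 library in 10 of the 17, beside 2161 of all 5310 tested genes. Without it 12 genes were called lower, 11 of them among the 17, and all 17 kept an adjusted p under 0.05. Besides the 2 *FLO* members, the largest falls were those of PP7435_Chr1-1388 and PP7435_Chr3-1236, for which no gene name was available. PP7435_Chr1-1388 had 828, 805 and 815 normalized counts at S3, against 1884, 2536 and 2104 at S1. PP7435_Chr3-1236 had 74.0, 70.1 and 74.7 at S3, against 151, 160 and 224 at S1. The groups did not overlap in either gene. The log2 fold changes were -1.40 and -1.26 (adjusted p = 0.00043 and 0.0016 from limma). With shrunken fold changes PP7435_Chr3-1236 was at -0.97, inside the factor of 2.

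Several of the genes that fell had identifiers close to those of *FLO* family members. The distance between identifier numbers on a chromosome was taken as a rough measure of closeness, since no coordinates were used here. PP7435_Chr1-1388 is numbered directly before *FLO5-1*, and the gene before it was also called lower (-1.12). PP7435_Chr3-1236 is numbered directly before PP7435_Chr3-1237, and the genes numbered 1232 and 1234 on chromosome 3 were called lower as well (-1.09 and -1.10). The numbers 1011 and 1012 on chromosome 4, directly before PP7435_Chr4-1013, were also called lower (-1.02 and -1.07), although that member itself was not called. The study places many family members beside chromosome ends. *FLO5-1* is among its exceptions, while PP7435_Chr3-1237 and PP7435_Chr4-1013 are not. Closeness to a member and closeness to a chromosome end were not separated here, and neither was tested.

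Of 79 tested genes within 5 numbers of a *FLO* family member, the members themselves left out, 7 (8.86%) were called lower, beside 0.32% of all genes. Another 3 (3.80%) were called higher, beside 1.11%. These 3 were PP7435_Chr4-1018, numbered 2 before *FLO300*, the gene numbered directly after *BSC1* (1.68) and the gene numbered 2 before *FLO400* (1.57). The pattern was not general, since the median log2 fold change of the 79 was -0.07. Nor did it extend far, with 8 of 276 genes (2.90%) called lower within 20 numbers. The window was chosen after the values were seen, and the counts are a description without a test. In all, 13 of the 76 called genes had another called gene within 2 numbers, 9 of them lower and 4 higher, and 0 of these close pairs changed in opposite directions.

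**Figure D4:**
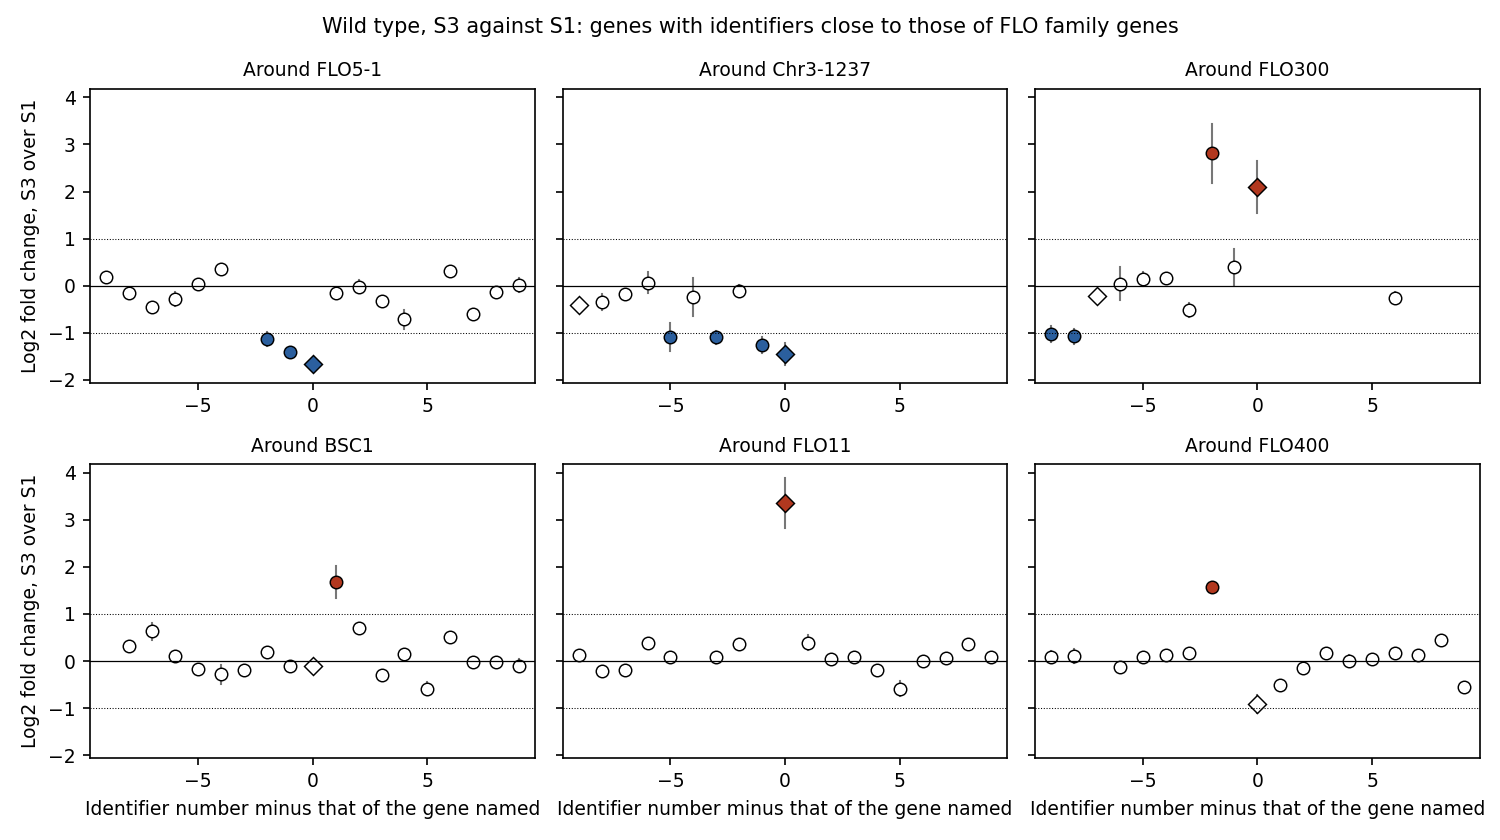
Log2 fold change of S3 over S1 in the wild type with its standard error (bars), around a chosen part of the *FLO* family. Each panel holds genes with identifier numbers within 9 of *FLO5-1*, Chr3-1237, *FLO300*, *BSC1*, *FLO11* or *FLO400*. The other members have no panel of their own. Diamonds are family members and filled symbols called genes. Called falls sit directly before *FLO5-1* and Chr3-1237, and the gene numbered 2 before *FLO300* rises with it, while no other called gene is in the panel of *FLO11*.

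The same change of growth rate was measured in the *flo8Δ* strain, in which part of *FLO8* and of its promoter is deleted, with 3 replicates each of S3 and S1. The *FLO8* transcript was still counted there, at 32.6 ± 2.69 TPM at S3 and 28.2 ± 3.88 TPM at S1 (SD, n = 3 each), beside 33.7 and 36.2 TPM in the wild type. The strains overlapped at S3, and at S1 every *flo8Δ* library was below every wild-type library by a small margin, so the deletion could not be checked by a loss of these reads. These 6 libraries share none with the wild-type comparison. Of 5307 genes tested there, 17 (0.32%) were called higher and 12 (0.226%) lower at S3. By adjusted p alone 782 genes (14.7%) were higher and 889 (16.8%) lower. Of the 59 genes that rose in the wild type, 57 were tested in *flo8Δ*. Their median log2 fold change was 0.34 there, against 1.30 in the wild type and 0.00 over all genes in *flo8Δ*. In *flo8Δ*, 34 of the 57 passed the adjusted p on the higher side and 2 on the lower side. The shared calls numbered 10, which is 16.9% of the wild-type list and 58.8% of the *flo8Δ* list. Of the 17 genes that fell, 10 passed the adjusted p on the lower side in *flo8Δ* and 2 on the higher side, with a median of -0.62, and the shared calls numbered 2.

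The difference between the strains in their response was tested directly. An interaction of strain and growth rate was called for 28 of 5304 genes (0.528%), 17 (0.321%) positive and 11 (0.207%) negative. By adjusted p alone it was 263 genes (4.96%), 130 (2.45%) positive and 133 (2.51%) negative. Among the called wild-type genes 74 could be tested, and 15 of them (20.3%) were called, 11 among the rises and 4 among the falls. In all 15 the difference had the sign of the wild-type change. That list was selected on the wild-type values, which enter the interaction as well, so this share is a description.

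Named genes fell into different patterns. *FLO300* and PP7435_Chr4-1018 rose in both strains in normalized counts. *FLO300* had 580, 579 and 428 normalized counts at S3 in *flo8Δ*, against 205, 228 and 190 at S1, a log2 fold change of 1.33 (adjusted p = 1.9e-05 from limma). The difference between strains was 0.76 (standard error 0.62, adjusted p = 0.47 by limma). With 1 library left out it ranged from 0.22 to 1.495, and it was called without wild-type S3 replicate 1 (1.495, adjusted p = 0.022 by limma). The estimated counts came to 82.1% to 97.0% of the *FLO300* reads at S1 in *flo8Δ*, against 19.0% to 28.2% at S3. In the wild type they came to 39.4% to 64.4% at S1 and 3.36% to 24.8% at S3. On the reads less these counts the difference between strains turned to -1.12. PP7435_Chr4-1018 had a log2 fold change of 2.43 in *flo8Δ*, and the difference was 0.38 (standard error 0.72, limma's adjusted p = 0.78). A p that misses the threshold does not show that the strains respond alike, and the standard errors are wide.

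PP7435_Chr4-0893 and *FLO5-1* passed the test in the wild type and not in *flo8Δ*, and the strains differed. PP7435_Chr4-0893 had 342, 381 and 380 normalized counts at S3 in *flo8Δ*, against 312, 378 and 330 at S1. The difference between strains was 2.44 (standard error 0.38, adjusted p = 0.0048 by limma), and 2.67 on the estimated counts, where it did not pass (adjusted p = 0.23 by edgeR). *FLO5-1* had 724, 652 and 656 normalized counts at S3 in *flo8Δ*, against 712, 744 and 727 at S1, with overlap. The difference was -1.56 (standard error 0.11, limma's adjusted p = 6.1e-06). It lost the call on the estimated counts (-0.35, adjusted p = 0.37 by edgeR), which came to 51.8% to 56.9% of its reads in *flo8Δ*, and was -1.52 on the reads less these counts. *FLO5-1* was already low in *flo8Δ*, where it averaged 47.9 ± 3.38 TPM at S3 and 47.5 ± 0.893 TPM at S1 (SD, n = 3 each). *FLO11* could not be tested in *flo8Δ*, where it had 7, 13 and 5 reads at S3, against 10, 9 and 8 at S1.

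PP7435_Chr3-1237 and PP7435_Chr3-1236 moved in opposite directions in the strains in normalized counts. PP7435_Chr3-1237 had 67.6, 62.8 and 87.7 normalized counts at S3 in *flo8Δ*, against 37.2, 33.2 and 23.7 at S1. PP7435_Chr3-1236 had 85.6, 46.3 and 60.8 at S3, against 26.0, 33.2 and 22.8 at S1. Both rose in *flo8Δ*, by 1.20 and 1.17 on the log2 scale (adjusted p = 0.0016 and 0.0041 from limma). The differences between strains were -2.65 and -2.43 (adjusted p = 0.0012 for both from limma). Both depended on which reads were counted. The estimated counts came to 88.4% to 97.8% of the reads of PP7435_Chr3-1237 in *flo8Δ*, against 19.8% to 45.2% at S3 and 4.15% to 7.59% at S1 in the wild type. For PP7435_Chr3-1236 they came to 90.5% to 102% in *flo8Δ*, against 35.7% to 49.4% at S3 and 5.86% to 12.4% at S1 in the wild type. On the estimated counts alone the wild-type changes of both turned positive (1.05 and 0.91), and the differences between strains were -0.22 and -0.41 (adjusted p = 0.86 and 0.74 by edgeR). On the reads less these counts the differences were -2.15 and -2.06 and did not pass either (adjusted p = 0.24 and 0.28 by edgeR), while the wild-type changes stayed negative (-1.85 and -1.87). In TPM, PP7435_Chr3-1237 had 8.49, 15.3 and 15.3 at S3, against 27.9, 34.2 and 46.0 at S1 in the wild type, and averaged 7.89 ± 1.84 at S3 and 3.13 ± 0.752 at S1 in *flo8Δ* (SD, n = 3 each).

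*FLO400* and PP7435_Chr1-1388 fell in both strains from very different levels. *FLO400* had 1295, 1276 and 1492 normalized counts at S3 in *flo8Δ*, against 4418, 3465 and 5334 at S1. Its log2 fold change there was -1.68 (adjusted p = 5e-06 from limma), and the difference between strains was 0.76 (standard error 0.25, adjusted p = 0.086 by limma). PP7435_Chr1-1388 had a log2 fold change of -1.70 in *flo8Δ*, and the difference was 0.30 (adjusted p = 0.50 from limma). Its level averaged 64.2 ± 0.851 TPM at S3 and 174 ± 19.6 TPM at S1 in the wild type, and 1.58 ± 0.564 TPM at S3 and 4.73 ± 0.485 TPM at S1 in *flo8Δ* (SD, n = 3 each). *BSC1* fell in *flo8Δ* by 0.68 on the log2 scale (adjusted p = 0.00031 from limma) and had -0.11 in the wild type, a difference of 0.57 (adjusted p = 0.041 from limma).

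**Figure D5:**
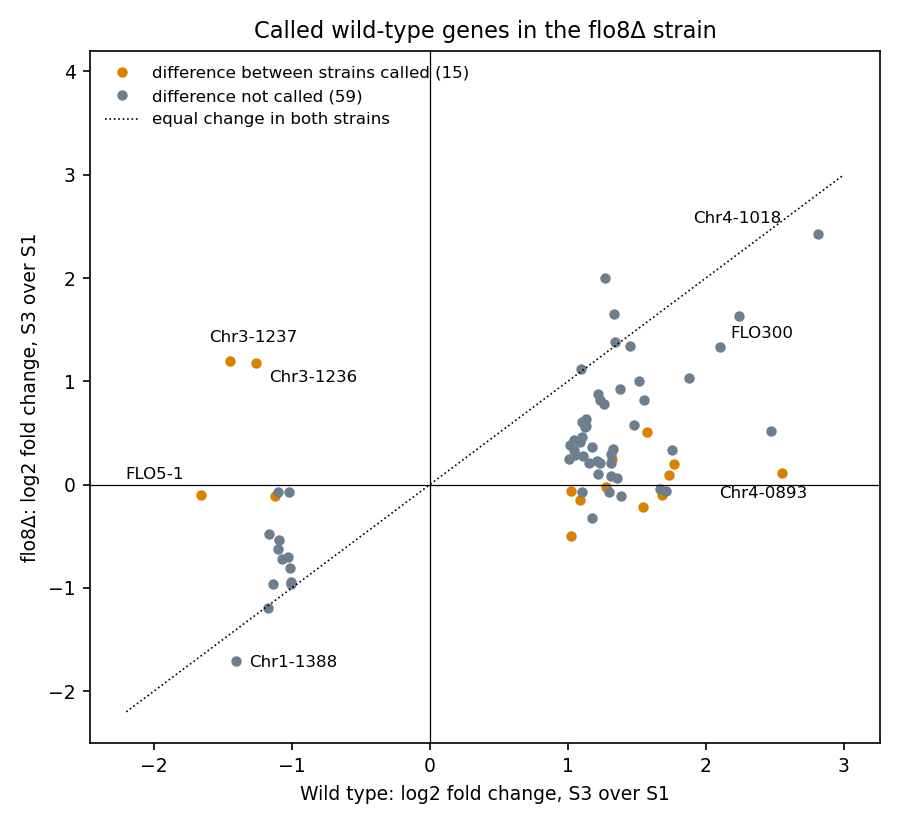
Log2 fold change of S3 over S1 in the wild type against that in *flo8Δ* for the 74 called wild-type genes tested in both strains; the dotted line marks equal change, and orange points are the 15 genes with a called difference. Of the 57 genes that rose in the wild type, 45 have the same sign in *flo8Δ*, and Chr3-1237 and Chr3-1236 are the pair that fell in the wild type and rose in *flo8Δ*.

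After S3 the wild-type chemostats were returned to 0.1 per h and sampled again (S5). Comparisons of S5 with S3 and with S1 share libraries with the comparison above, so only levels are set side by side. The 59 genes that rose had a median of 97.5 TPM at S5, beside 279 TPM at S3 and 124 TPM at S1. The 17 genes that fell had a median of 20.5 TPM at S5, beside 16.1 TPM at S3 and 37.9 TPM at S1. Over all tested genes the median was 54.5 TPM at S5, beside 58.7 TPM at S3 and 59.0 TPM at S1.

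Named genes differed in where their S5 levels lay. *FLO11* had 21.7, 15.3 and 17.4 TPM at S5, between its S3 range of 38.0 to 79.0 TPM and its S1 range of 2.24 to 8.81 TPM. PP7435_Chr4-0893 had 240, 196 and 222 TPM at S5, near its S1 values of 227, 226 and 94.9 TPM and far from its S3 range of 873 to 1074 TPM. *FLO5-1* had 491, 546 and 222 TPM at S5, below its S3 range of 628 to 714 TPM and its S1 range of 1893 to 2409 TPM. *FLO300* had 84.9, 58.2 and 340 TPM at S5, beside 11.8, 42.8 and 72.2 TPM at S3. PP7435_Chr4-1018 had 13.2, 9.75 and 50.1 TPM at S5, beside 1.43, 6.06 and 8.68 TPM at S3. S5 replicate 3 was the highest library in both genes. The same library also had 94.1 TPM of *FLO100*, against 5.00 and 1.90 TPM in the other S5 libraries.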

How the data were processed

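RNA-Seq of 6 wild-type chemostat libraries (S3 and S1, n = 3 each) was re-analysed, with the S5 and *flo8Δ* libraries for comparison. Groups were taken from the sample labels. The table columns of the wild type are numbered 1 to 3 and carry no growth rate; 1 and 2 were taken as S1 and S3 as the selection of this comparison states, and 3 as S5, the wild-type group left, and group levels were then compared by eye with those the study lists. Per the methods and the submitters' processing notes, the authors trimmed poly-A single reads with Trim Galore 0.4.2, ran kallisto 0.43.1 against CBS7435 transcripts and scaled the result in DESeq2 1.14.1 after tximport. The deposited normalized counts, a signal per gene, come in 6 tables of 6 libraries and 5341 transcripts. The authors also deposited kallisto estimated counts for each library, which sum to 5.06% to 6.11% of the reads behind the normalized counts; their names say stranded, and the strand setting behind the tables is not given in the sources used here. Reads were recovered from the normalized counts by dividing by 1 step per library and a factor for effective length; 100% were whole within 0.01, as checked by this re-analysis alone. TPM were computed from these reads and the effective lengths. The scaling assumes that most genes do not change between samples. Depth was 4632193 to 10843287 reads in the wild-type S3 and S1 libraries, lowest in S1 replicate 3, where counts are least precise. In *flo8Δ*, S1 replicate 2 had 4163342 reads, and the median SD of a gene on the log2 scale was 0.0792 among the 3 S1 libraries. The part of depth in the values of wild-type S1 replicate 3 was not tested.

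limma 3.58.1 in R 4.3.3 was run on log2 values after adding 1 to each normalized count, with a trended prior variance and Benjamini-Hochberg adjustment over all tested genes. A call took the thresholds of the methods, an adjusted p under 0.05 and at least a doubling or halving (a log2 fold change past 1 or -1). The authors applied these to DESeq2 results, whereas here they were applied to log2 fold changes from limma, which were not shrunken. By the design of the study S1 and S3 were sampled in turn from a chemostat, but the labels do not state which libraries share a run. They were fitted as independent, so any sharing is ignored in the main fit. Same-numbered S3 and S1 libraries had deviations that correlated at 0.0439, -0.0727 and 0.0953. With 3 libraries per group this cannot show whether they are pairs, and the numbers were not used as pairs. The interaction was fitted on the 2 tables that compare the growth rates, 1 for each strain. Alternatives were edgeR 4.0.16 with TMM or RLE, DESeq2 1.42.0 with and without shrinkage, edgeR on the rounded estimated counts and on the reads less these counts, a pseudocount of 0.1, other filters, a replicate block, all 15 libraries in 1 fit, each library left out, and TPM with the full transcript length. On simulated counts limma, edgeR and DESeq2 called all 200 changed genes and 0 of the others among 5313. The median absolute log2 fold change of these 200 was 2.00 to 2.01. They were well-read genes, with the same low dispersion for all genes and no library set apart. Most called genes of the wild type changed by less, so the simulation checks the code and does not measure the reliability of these calls.

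Genes named are the *FLO* family, *FLO8* and *ACT1*. The rule was to name also the 20 largest rises and 17 largest falls, but the reference annotation matched 0 of the identifiers, so only the top 2 unnamed genes of each direction are printed, and the 19 lists of genes by symbol could not be applied. For *FLO5-1* and *FLO5-2* the text of the study prints other chromosome numbers than used here, and these genes were identified by the levels it lists under their names. Members and lists were chosen with earlier results of these data known. The authors' kallisto TPM columns were not used.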

Additional observations from a re-analysis of the deposited data

Results flagged for a closer look

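For 5 named genes the change of S3 over S1 differed between the wild type and *flo8Δ* by the interaction test of limma (adjusted p under 0.05). The differences on the log2 scale were -1.56 for *FLO5-1* (-1.66 in the wild type and -0.10 in *flo8Δ*), 0.57 for *BSC1* (-0.11 and -0.68), -2.65 for PP7435_Chr3-1237 (-1.45 and 1.20), 2.44 for PP7435_Chr4-0893 (2.55 and 0.12) and -2.43 for PP7435_Chr3-1236 (-1.26 and 1.17). For PP7435_Chr3-1237 and PP7435_Chr3-1236 the direction of the change was opposite in the strains in normalized counts, but not on the estimated counts, where both wild-type changes were positive. On the estimated counts the difference lost its call for *FLO5-1* (-0.35, adjusted p = 0.37 by edgeR), PP7435_Chr3-1237 (-0.22, 0.86), PP7435_Chr3-1236 (-0.41, 0.74) and PP7435_Chr4-0893 (2.67, 0.23). On the reads less these counts it was lost for PP7435_Chr3-1237 (-2.15, adjusted p = 0.24 by edgeR) and PP7435_Chr3-1236 (-2.06, 0.28). The difference of *BSC1* passed the adjusted p (0.041) but not the factor of 2, and its adjusted p reached 0.096 with 1 library left out. The groups hold 3 libraries each, too few to test a single library as an outlier.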

How the results depend on the processing

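Counts of genes higher and lower at S3 in the wild type (59 and 17) were 49 and 18 with edgeR and TMM, and 45 and 18 with DESeq2. Shrunken fold changes from DESeq2 left 13 and 5. On the estimated counts 86 genes were higher and 42 lower, of which 11 and 4 were among the main calls. Leaving out 1 library gave 34 to 116 and 12 to 24 genes. In *flo8Δ* (17 and 12) the estimated counts gave 39 and 28, the reads less these counts 30 higher, and leaving out 1 library 14 to 20 and 9 to 14. The 28 interaction calls ranged from 18, without wild-type S3 replicate 2, to 99, without wild-type S1 replicate 2. With the replicate number as a block, 65 and 18 genes were called, including 58 of the 59 and all 17. Whether the same number marks the same chemostat is not stated, so the block may or may not be a pairing.

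Directions turned on the estimated counts for *FLO300* (-0.54), PP7435_Chr3-1237 (1.05) and PP7435_Chr3-1236 (0.91), and for the strain difference of *FLO400* (-0.46). They turned on the reads less these counts for PP7435_Chr4-1013 (0.82) and the strain difference of *FLO300* (-1.12), and without S3 replicate 3 for the strain difference of PP7435_Chr4-1018 (-0.12), where the range with 1 library left out was -0.12 to 1.13. PP7435_Chr4-0629, at 0.01, was -0.0106 (edgeR, TMM), -0.0057 (RLE), -0.00083 (DESeq2), -0.00073 (shrunken) and -0.0339 (reads less estimated counts), and lay between -0.10 and 0.0917 with 1 library left out, at -0.09 without S3 replicate 3. The cause of these changes was not tested. Of 489 values of named genes under alternatives, 452 kept direction and call, 17 lost and 6 gained the call, and 14 turned. *FLO100* (1 to 168 reads) was left out by the filter of 10 counts in 3 libraries.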
